A study of Mus musculus with 16 samples.

Results

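The genes examined here are 10 genes of the circadian clock, Arntl, Clock, Per1, Per2, Per3, Cry1, Nr1d1, Dbp, Ciart and Nfil3, chosen by gene symbol out of the 40481 genes in the count table. All 10 had more than 1 CPM (counts scaled to a common library total) in 7 or more mice and were among the 14949 genes tested. RNA was sequenced from brain tissue of 16 male C57BL mice (C57BL/6J in the methods of the study) bought at 18 months of age, 8 treated with adropin and 8 with saline. The treated mice received 90 nmol/kg/d of Adropin(34-76), a fragment of a secreted peptide, as 1 intraperitoneal injection a day at 0900 h over 4 weeks, in sterile saline with bovine serum albumin. The controls received the saline diluent only, and mice of both groups were fasted for 6 h at the end of treatment, before tissue was taken. Which part of the brain was taken is not given in the sources used here. Total counts ranged from 35185051 to 70314050 in the adropin group and from 35026503 to 47245785 in the saline group. The clock time at which brains were collected is not given in the sources used here, and each mouse contributed 1 sample, so the data hold no time course. Each mouse is called by its 2 label numbers, which the sources used here do not explain.

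The clock of mammalian cells is a loop of transcription and repression. CLOCK and ARNTL (also called BMAL1) bind E-box sequences as a pair and switch on the Per and Cry genes, Nr1d1, Dbp and Ciart, while PER and CRY proteins, and CIART, repress that pair. NR1D1 (REV-ERB alpha) represses Arntl and Nfil3 through ROR elements, and DBP activates and NFIL3 represses genes that carry D-boxes, so that in most tissues transcripts of Dbp and Nr1d1 are high when those of Arntl are low. Per1 is also an acute target of CREB in neurons and of the glucocorticoid receptor.

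The 10 transcripts differed in level when TMM-normalized CPM were divided by exonic length. Nr1d1 was the highest, with a median of 48.0 CPM per kilobase over the 16 mice, followed by Per1 with 25.5 and Dbp with 12.1. Ciart (8.55), Per2 (6.92), Cry1 (5.26), Nfil3 (4.62), Per3 (4.30), Arntl (3.82) and Clock (3.52) came next, in CPM per kilobase. Only Per1 and Dbp were neighbours in this order whose ranges did not overlap. Nr1d1 lay above Per1 in 16 of 16 mice, but Nfil3 lay above Per3 in 9 and Arntl above Clock in 10, so these last pairs cannot be ordered beyond their spread. Dbp shares 539 bases (18.0% of its exonic length) with Sphk2, and Nr1d1 shares 263 bases (8.55%) with Thra, both on the opposite strand. Whether counting used strand is not given in the sources used here, so the counts of Dbp and Nr1d1 are uncertain to that extent.

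Promoter sequence from RefSeq on GRCm38.p6, 250 bases before to 50 bases after an annotated start, was found for 9 of the 10 genes, and 13 windows were searched on both strands. The motifs were the E-box CACGTG, the D-boxes TTATGTAA and TTACGTAA, the ROR elements TAGGTCA and TGGGTCA, the cyclic AMP response element TGACGTCA and its part TGACG, which the whole element contains. Stretches with matches are shown because they lie at genes whose relations between mice are described below, all but the second start of Per1, with the matches in capitals, read 5′ to 3′ on the strand of the gene.
Ciart, chr3:95882229-95882358, minus strand: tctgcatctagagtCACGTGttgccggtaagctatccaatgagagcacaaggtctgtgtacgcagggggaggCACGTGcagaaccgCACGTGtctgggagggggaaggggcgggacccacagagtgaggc
Cry1, chr10:85185055-85185134, minus strand: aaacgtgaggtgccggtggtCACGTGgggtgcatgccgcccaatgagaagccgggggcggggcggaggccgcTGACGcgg
Per1, chr11:69098699-69098799, plus strand: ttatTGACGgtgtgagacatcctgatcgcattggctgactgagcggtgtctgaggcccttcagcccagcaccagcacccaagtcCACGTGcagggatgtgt
Per3, chr4:151044795-151044890, minus strand: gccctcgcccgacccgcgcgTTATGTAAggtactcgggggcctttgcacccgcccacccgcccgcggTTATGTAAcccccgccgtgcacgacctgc
Nfil3, chr13:52981040-52981119, minus strand: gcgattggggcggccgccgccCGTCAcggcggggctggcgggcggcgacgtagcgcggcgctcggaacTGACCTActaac
Arntl, chr7:113207532-113207556, plus strand: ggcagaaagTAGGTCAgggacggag

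Ciart held 3 E-boxes, beginning 116, 58 and 44 bases before its start, and Cry1 and the upstream start of Per1 held 1 each. Per3 held 2 D-boxes. Nfil3 held a ROR element on the opposite strand, and a second start of Arntl held 1 in its first exon. The part TGACG, on either strand, was found at both starts of Per1, in Cry1 and in Nfil3, and none of the windows held the whole cyclic AMP response element. Of 32851 mouse promoter windows of this length, 7.15% held the E-box, 1.06% a D-box, 6.45% a ROR element, 1.79% the whole cyclic AMP response element and 20.8% its part. The windows of Clock, Dbp and Nr1d1 held none of these letters, which says nothing of elements outside them.

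**Figure D1:**
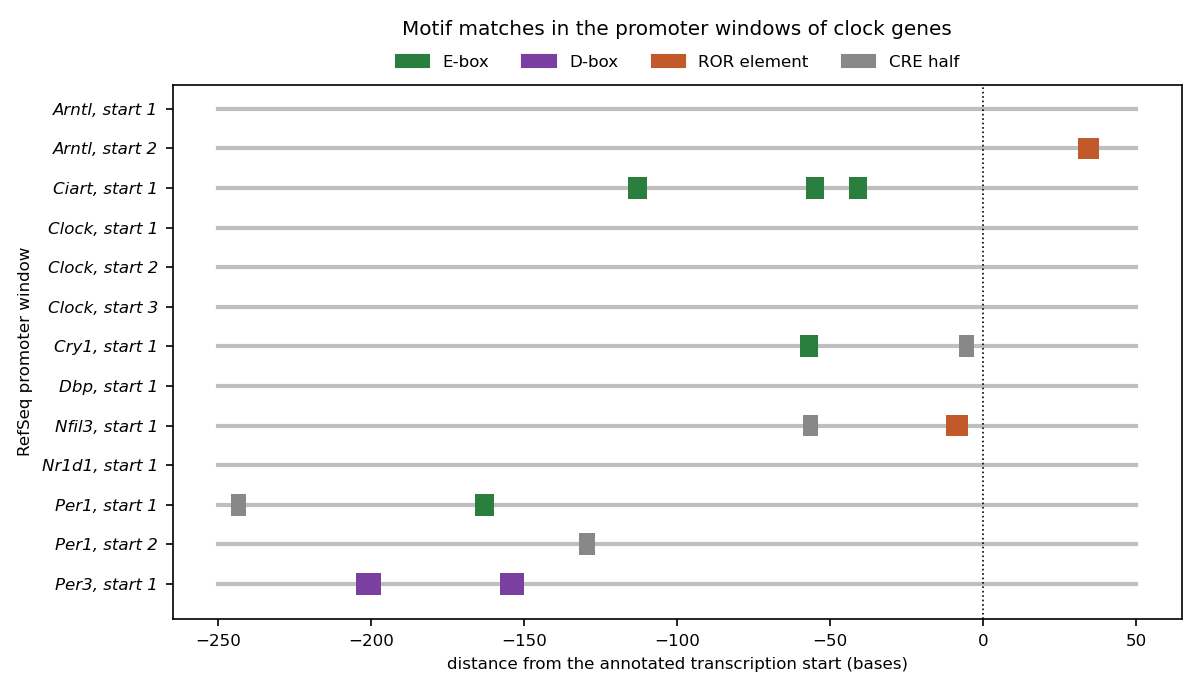
Motif matches (coloured blocks) in the 13 RefSeq promoter windows of 9 clock genes, by distance in bases from the annotated start. Ciart shows 3 E-boxes before its start, and Per3 shows 2 D-boxes.

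The first question was whether the clock genes differed between adropin and saline. Of the 10 genes, 2 had an unadjusted p below 0.05 in edgeR's quasi-likelihood test, Nfil3 and Per1, and both were lower in adropin. Over all genes tested, 3.99% reached an unadjusted p below 0.05, and 2.13% did so with lower levels in adropin. None of the 10 passed the cut-off of the study (an unadjusted p below 0.05 with a fold change over 1.5), which 0.421% of all genes passed. None reached an adjusted p below 0.05 in edgeR (0% of all genes), limma-voom or DESeq2. The median log2 fold change of the 10 genes was -0.05, and that of all genes tested was -0.00. The 10 genes vary together between mice, as described below, and are not independent of each other.

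Nfil3, a repressor at D-boxes, is on chromosome 13 of GRCm38 from 52967209 to 52981073. It ranged from 6.84 to 9.89 TMM-normalized CPM in adropin with a median of 8.36, and from 8.89 to 15.4 in saline with a median of 10.4. The 8 adropin mice all lay below the saline median, and the groups overlapped only through adropin mouse 1_3 (9.89) and saline mice 5_4 (8.89) and 5_3 (9.84). Adropin mice averaged 8.32 ± 0.895 CPM and saline mice 11.0 ± 2.05 (SD, n = 8 per group), with a log2 fold change of -0.40 (standard error 0.10, edgeR unadjusted p = 0.000971, adjusted p = 0.874). The exact two-sided permutation test over every way of splitting the mice 8 and 8 gave p = 0.000466. Nfil3 was the 12th of the 14949 genes by unadjusted p. Counts of Nfil3 per mouse ran from 248 to 667. Leaving out each mouse in turn gave log2 fold changes from -0.44 to -0.32, the smallest without saline mouse 6_2 (15.4 CPM), and unadjusted p-values up to 0.00245.

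The saline group held one library rich in choroid plexus markers. All 5 choroid plexus genes examined were lower in adropin at an unadjusted p below 0.05 (edgeR), against 2.13% of all genes tested. Their summed level ran from 11.1 to 73.4 CPM in adropin and from 12.6 to 2460 in saline, where mouse 8_3 held 2460 and the next mouse 328. The log2 fold changes were -4.07 for Ttr, -1.89 for Clic6, -1.31 for Sostdc1, -1.21 for Prlr and -1.11 for Kl. Without mouse 8_3 they were -1.34, -0.67, -0.33, -0.73 and -0.61, and Prlr and Kl alone kept an unadjusted p below 0.05. None of the 5 was at 0 in any mouse. Of 5 cerebellum genes 2 were tested and 1 was lower, with a summed level from 16.4 to 38.3 CPM in adropin and from 20.2 to 406 in saline, where mouse 8_3 held 406. The gene was Car8, with a log2 fold change of -1.40 that turned to 0.20 without mouse 8_3 (edgeR unadjusted p = 0.0831). The cerebellum genes Pcp2 and Gabra6 were at 0 in some mice. Without mouse 8_3 the log2 fold change of Nfil3 was -0.38 (edgeR unadjusted p = 0.00241) and that of Per1 was -0.28 (edgeR unadjusted p = 0.0288). Markers of neurons (6 genes), astrocytes (5), oligodendrocytes (5) and endothelium (4) had no gene at an unadjusted p below 0.05, nor did those of striatum (5) and blood (5), whereas 1 of 5 microglia genes was higher (Cx3cr1, log2 fold change 0.18) and 1 of 5 thalamus genes was lower (Prkcd, -0.28). Without mouse 8_3 Cx3cr1 had 0.15 (edgeR unadjusted p = 0.0483) and Prkcd -0.18 (edgeR unadjusted p = 0.0273). In RNA of bulk tissue, fewer cells of a type and less RNA per cell cannot be told apart.

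Per1, a period gene that is also induced acutely by stimuli, is on chromosome 11 from 69095217 to 69109960. It ranged from 105 to 160 CPM in adropin with a median of 134, and from 121 to 203 in saline with a median of 162. Again the 8 adropin mice lay below the saline median, but 4 saline mice (5_4, 2_3, 6_1 and 8_3) lay within the adropin range. Adropin mice averaged 135 ± 19.4 CPM and saline mice 162 ± 30.6 (SD, n = 8 per group), with a log2 fold change of -0.26 (standard error 0.11, edgeR unadjusted p = 0.0327, adjusted p = 0.874). The exact permutation test gave p = 0.0632. The edgeR p was above 0.05 without adropin mouse 2_4, 3_3, 4_3 or 5_5 and without saline mouse 5_3, 6_2, 7_1 or 8_1 (0.0585 to 0.0745), while the log2 fold change stayed between -0.31 and -0.21 whichever mouse was left out.

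Clock, the partner of ARNTL, is on chromosome 5 from 76209868 to 76304792, and ranged from 34.3 to 65.4 CPM in adropin with a median of 56.4 and from 31.6 to 56.4 in saline with a median of 45.2. In adropin 6 of 8 mice lay above the saline median. The log2 fold change was 0.27 (standard error 0.13, edgeR unadjusted p = 0.0547, exact permutation p = 0.0976). The edgeR p was below 0.05 without adropin mouse 3_3 or 4_3 and without saline mouse 5_3 or 7_1 (0.00834 to 0.0412).

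The other period genes and Cry1 encode the repressors of the loop. Per2 ranged from 28.5 to 52.9 CPM in adropin (median 36.8) and from 34.7 to 55.5 in saline (median 42.5), with a log2 fold change of -0.17 (95% confidence interval -0.44 to 0.11, edgeR unadjusted p = 0.204). Per3 ranged from 32.0 to 51.5 CPM in adropin (median 42.4) and from 33.2 to 58.2 in saline (median 40.7), with a log2 fold change of -0.02 (-0.25 to 0.22, edgeR unadjusted p = 0.890). Cry1 ranged from 14.8 to 19.9 CPM in adropin (median 17.4) and from 14.9 to 21.4 in saline (median 18.2), with a log2 fold change of -0.08 (-0.25 to 0.10, edgeR unadjusted p = 0.359). The groups of all 3 genes overlapped over most of their range.

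Arntl, the activator, ranged from 22.4 to 33.7 CPM in adropin (median 29.1) and from 23.99 to 34.5 in saline (median 28.4), with a log2 fold change of 0.03 (95% confidence interval -0.15 to 0.21, edgeR unadjusted p = 0.741). Nr1d1, the repressor of Arntl, ranged from 109 to 160 CPM in adropin (median 148) and from 99.5 to 169 in saline (median 146), with a log2 fold change of 0.01 (-0.23 to 0.26, edgeR unadjusted p = 0.920). These 2 genes lay in the same range in both groups. Dbp, the D-box activator, ranged from 32.4 to 44.9 CPM in adropin (median 35.4) and from 32.5 to 48.9 in saline (median 36.8), with a log2 fold change of -0.03 (-0.22 to 0.17, edgeR unadjusted p = 0.755). Ciart ranged from 13.8 to 26.8 CPM in adropin (median 18.3) and from 15.0 to 24.7 in saline (median 20.4), with a log2 fold change of -0.10 (-0.36 to 0.17, edgeR unadjusted p = 0.444). A difference between groups was not detectable for these genes, and their intervals bound it to between -0.36 and 0.26 on the log2 scale. The sign of the fold change of Arntl, Per3, Nr1d1 and Dbp turned in at least 1 of the alternative fits.

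**Figure D2:**
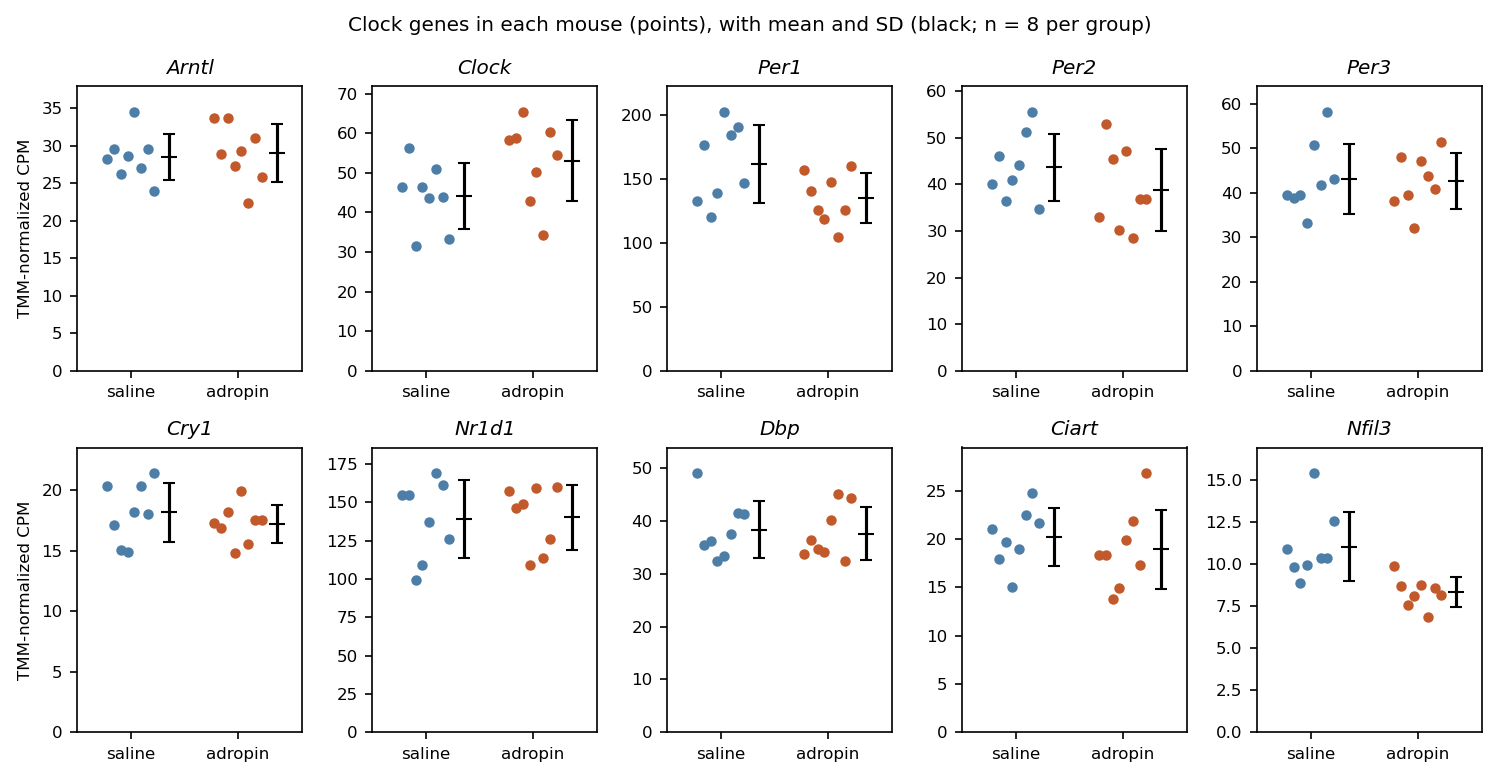
TMM-normalized CPM of the 10 clock genes in each of 16 mice (points; blue saline, orange adropin), with the mean and SD of each group (n = 8) in black and axes from 0. The 8 adropin mice lie at 6.84 to 9.89 CPM for Nfil3 and below the saline median of 10.4, whereas for Arntl, Nr1d1 and Dbp the groups overlap almost wholly.

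The groups share 3 first label numbers, 2, 5 and 7. Within them Nfil3 differed by -0.42, -0.12 and -0.35 on the log2 scale, adropin minus saline. Per1 differed by -0.00, -0.21 and -0.21, and Clock by 0.42, 0.52 and 0.10. Each value rests on 2 or 3 mice and was not tested. The first label number accounted for 37.8% (Per2) to 68.1% (Ciart) of the variance of the 10 genes over 16 mice, and none reached a permutation p below 0.05, the smallest being 0.113 for Ciart. With few mice per number, large shares arise in permutations as well, and the permutation p of Per2 was 0.681.

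Of 12 other genes of the loop, all were tested and 1 had an unadjusted p below 0.05 in edgeR. That was Rorb, an activator at ROR elements, at 53.2 ± 16.01 CPM under adropin against 41.9 ± 5.80 under saline (SD, n = 8 per group), a log2 fold change of 0.35 (standard error 0.15, unadjusted p = 0.0333). The edgeR p of Rorb was above 0.05 without adropin mouse 1_3, 5_5 or 7_4 or saline mouse 2_3, 6_1 or 8_3 (0.0563 to 0.0855). Cry2 (0.10), Npas2 (0.13), Nr1d2 (0.02), Bhlhe40 (-0.15), Bhlhe41 (-0.11), Tef (0.06) and Hlf (0.11) did not pass, as log2 fold changes. Of 11 genes for kinases, ubiquitin ligases and deubiquitinases that act on clock proteins, including Csnk1d and Csnk1e, none passed, and the median log2 fold change was 0.05. Of 9 genes whose transcripts follow the clock in many tissues 2 were lower, against 2.13% of all genes tested. They were Mfsd2a, a lipid transporter of the blood-brain barrier (log2 fold change -0.22, edgeR unadjusted p = 0.00799), and Coq10b (-0.21, edgeR unadjusted p = 0.0227). Coq10b had an edgeR p of 0.0538 without adropin mouse 3_3 and 0.0566 without saline mouse 8_3. None of 7 temperature-responsive genes passed, among them Cirbp (-0.01) and Rbm3 (0.01), whose products are cold-inducible RNA-binding proteins.

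Per1 belongs to the genes that neurons induce through CREB when active, and 8 others of that kind were examined. Of these 6 were lower in adropin at an unadjusted p below 0.05, all 6 past the cut-off of the study, and the median log2 fold change of the 8 was -0.62. Over all genes tested 2.13% were lower at that p, and 0.421% passed the cut-off in either direction. The study had named Fos, Junb and Dusp1 in a pathway enriched in these same mice, so the count is not an independent result. Fos had 28.5 ± 14.3 CPM in adropin and 57.1 ± 18.2 in saline (log2 fold change -0.997, edgeR unadjusted p = 0.00221). Junb had 111 ± 35.5 CPM in adropin and 173 ± 33.6 in saline (log2 fold change -0.64, edgeR unadjusted p = 0.00103). Nr4a1 (-0.65), Arc (-0.74), Dusp1 (-0.60) and Sik1 (-0.59) were lower as well, and Egr1 (-0.40, edgeR unadjusted p = 0.0592) and Crem (-0.00, edgeR unadjusted p = 0.993) did not pass. Their adjusted p was 0.874 for each of the 6. Some of these fold changes lay close to the limit of 1.5. Sik1 fell short of it with limma-voom (log2 fold change -0.55), and without adropin mouse 2_1, 2_4, 3_3, 4_1, 4_3 or 5_5 or saline mouse 5_3, 6_1, 6_2, 7_1 or 8_3 (-0.58 to -0.53). Dusp1 did so without adropin mouse 2_1, 2_4, 3_3, 4_1 or 4_3 or saline mouse 6_2, 7_1 or 8_3 (-0.58 to -0.52), Junb without adropin mouse 2_4 or 4_1 (-0.58 each) and Nr4a1 without saline mouse 6_2 (-0.54), all with an unadjusted p still below 0.05. The fits with label numbers as blocks, in which some of these calls were lost, are given at the end. Of 7 glucocorticoid-responsive genes 1 was lower, Cdkn1a (-0.27, unadjusted p = 0.00992). Genes of the suprachiasmatic nucleus, the central pacemaker, were scarce, and only Vip and Rgs16 of 7 passed the filter on low counts. Rgs16 had a log2 fold change of -0.24 (edgeR unadjusted p = 0.0245), and of -0.21 without saline mouse 8_3 (edgeR unadjusted p = 0.0510).

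**Figure D3:**
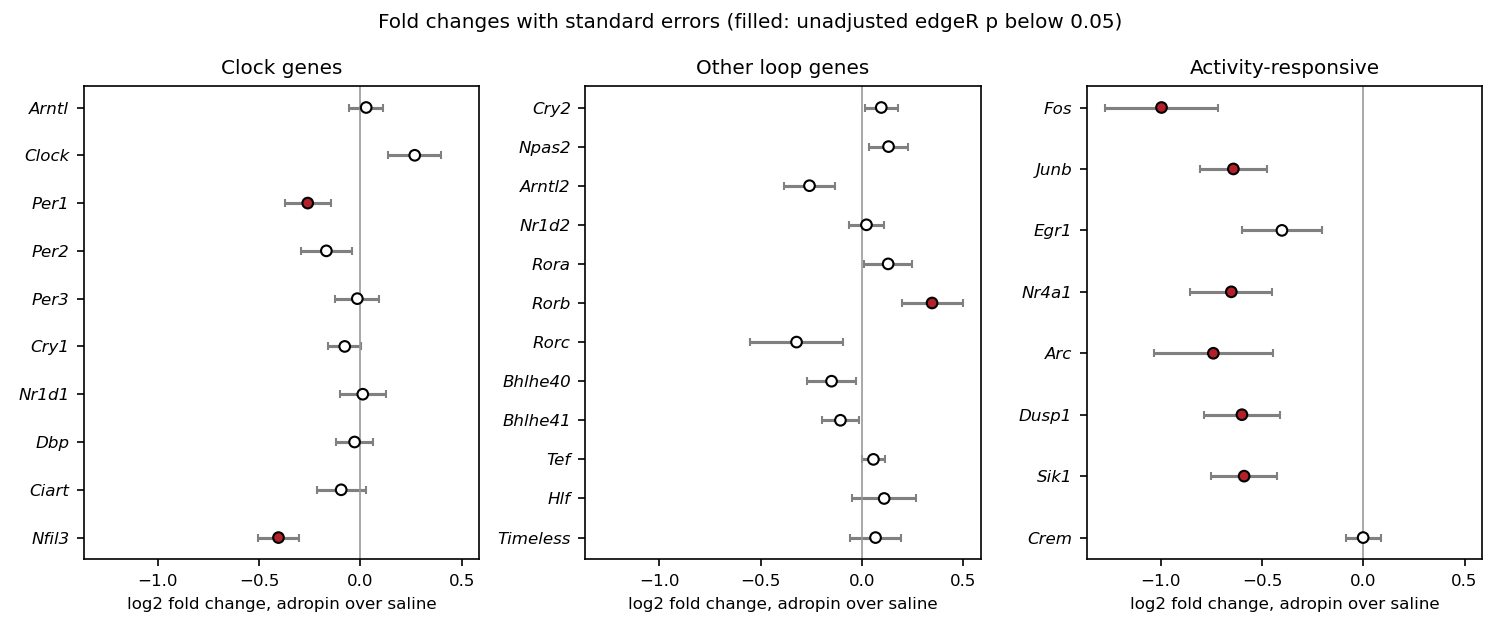
Log2 fold changes (adropin over saline) with standard errors for the 10 clock genes, 12 other loop genes and 8 activity-responsive genes, filled where the unadjusted edgeR p was below 0.05. Nfil3 (-0.40) and Per1 (-0.26) are filled among the clock genes, and 6 of the 8 activity-responsive genes lie from -0.997 to -0.59.

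The second question was how the clock genes varied together between mice. Within groups, the log2 CPM of 9 of the 10 genes spread more than the median of the 500 genes closest in level. Clock stood at percentile 92.8, Per2 at 90.6, Ciart at 84.8 and Nr1d1 at 84.6, while Nfil3 (52.7) and Cry1 (48.7) lay near the middle. The highest mouse had 2.07 times the Clock level of the lowest mouse, 1.94 times the Ciart level and 1.51 times the Dbp level.

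Relations between genes were measured as Pearson's r of log2 CPM across the 16 mice after the group means were subtracted, for 45 pairs, with p from 100000 permutations within groups and Benjamini-Hochberg adjustment over the pairs. Of the 45 pairs 8 had an adjusted p below 0.05, and all 8 were positive. They were Per1 and Nr1d1 (0.76), Dbp and Ciart (0.74), Per3 and Ciart (0.72), Cry1 and Nr1d1 (0.71), Arntl and Clock (0.70), Clock and Nr1d1 (0.67), Clock and Per2 (0.66) and Per2 and Nr1d1 (0.66). By Spearman's rho only Dbp and Ciart passed. As a background, 35.6% of the 45 pairs had an r of at least 0.5 in size, against 27.3% of all pairs of genes tested.

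Dbp and Ciart, both targets of CLOCK and ARNTL, were the only pair with an adjusted p below 0.05 by r, by rho and without the 2 mice farthest from the median. Their r was 0.74 (permutation p = 0.00142, adjusted p = 0.0336) and rho 0.80 (permutation p = 0.000810, adjusted p = 0.0364). Within adropin r was 0.81 (exact p = 0.0119) and within saline 0.67 (exact p = 0.0690). Leaving out the 2 mice farthest from the median gave r of 0.84 (permutation p = 0.000460, adjusted p = 0.0207). Only 0.261% of the other genes tested were as closely related to Dbp as Ciart was, and 0.475% to Ciart as Dbp was. For comparison, 35.0% of the other genes were as closely related to Clock as Nr1d1 was. As a description, the mean log2 level of the 5 oligodendrocyte markers had r of 0.52 with Dbp and 0.50 with Ciart, and that of the 5 thalamus markers 0.64 with Dbp and 0.36 with Ciart, and their part in the relation was not tested.

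Arntl and Dbp varied in opposite directions, with r of -0.60 (permutation p = 0.0176, adjusted p = 0.0880) and rho of -0.60 (permutation p = 0.0194, adjusted p = 0.137), so the relation did not pass the adjustment. Within adropin r was -0.80 (exact p = 0.0169) and within saline -0.38 (exact p = 0.353), and whether the groups differ was not tested. Leaving out the 2 mice farthest from the median gave r of -0.40 (permutation p = 0.167), so the unadjusted p below 0.05 rested on them. With single mice left out r ran from -0.71 to -0.49, with a permutation p below 0.05 in 15 of 16 cases and of 0.0775 without adropin mouse 4_3. With scaling to library size only r was -0.50 (permutation p = 0.0598). The ratio of Dbp to Arntl CPM, used here only to compare mice, ran from 1.001 to 2.00 in adropin with a median of 1.25, and from 0.962 to 1.73 in saline with a median of 1.38. It was highest in adropin mouse 4_3 (2.00), saline mice 2_3 (1.73) and 8_3 (1.72) and adropin mouse 7_4 (1.72), and lowest in saline mouse 6_2 (0.962) and adropin mouse 1_3 (1.001). High and low mice were thus found in both groups. Ciart against Arntl had an r of -0.47 (permutation p = 0.0896, adjusted p = 0.218). The r to Arntl was positive, without passing the adjustment, for Per1 (0.50, permutation p = 0.0462, adjusted p = 0.139), Per2 (0.47, permutation p = 0.0922, adjusted p = 0.218) and Nr1d1 (0.37, permutation p = 0.159, adjusted p = 0.265), and it was 0.11 for Cry1 and 0.02 for Per3. With the first principal component of the other genes regressed out, Nr1d1 had r of -0.35 (permutation p = 0.206).

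**Figure D4:**
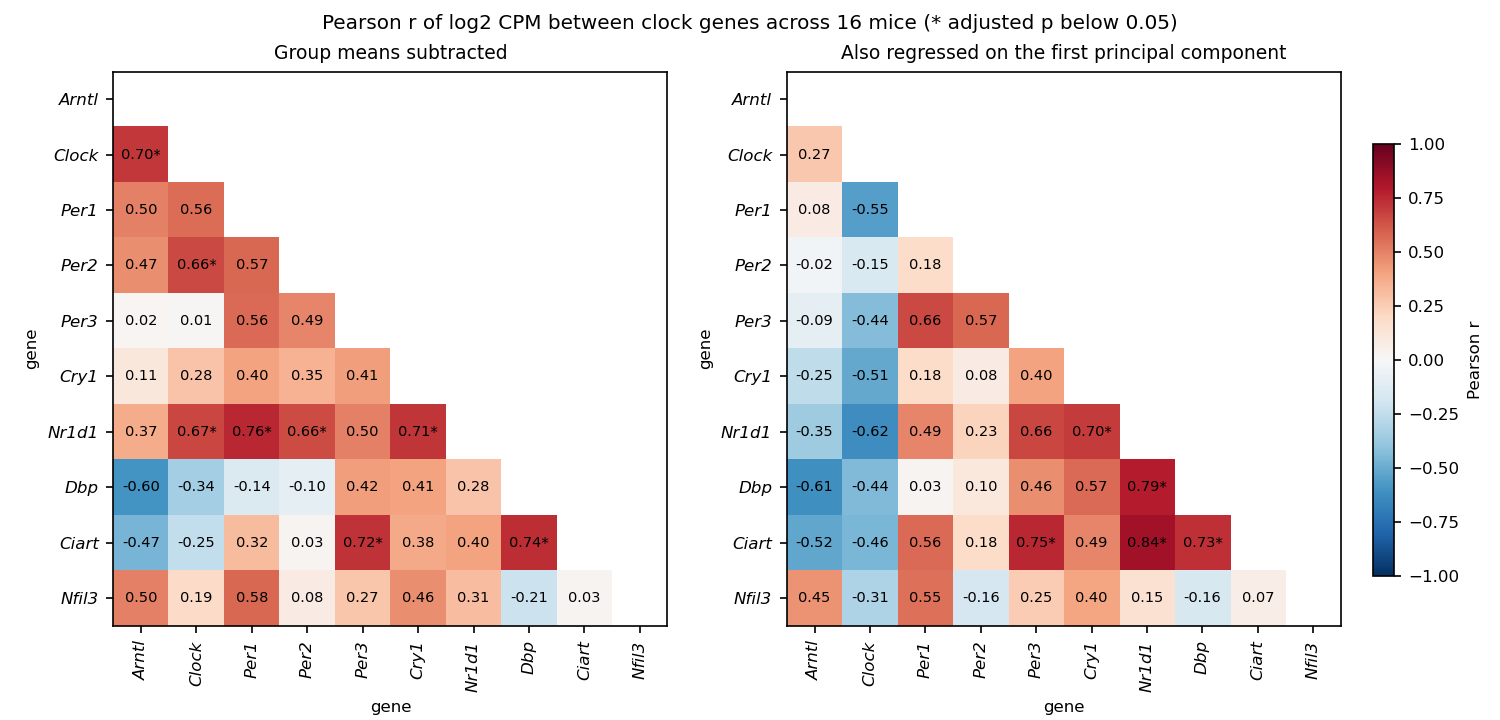
Pearson's r of log2 CPM between the 10 clock genes across 16 mice with group means subtracted (left) and after regression on the first principal component of the other genes as well (right), with an asterisk for an adjusted p below 0.05. On the left 8 pairs carry an asterisk and Arntl and Dbp stand at -0.60, and on the right 5 pairs do, with Nr1d1 and Ciart at 0.84.

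Of the 8 relations 5 lost their call once a component common to many genes was removed. The first principal component of the other genes tested held 34.1% of their variance, and its r was 0.97 with Clock, 0.79 with Nr1d1, 0.71 with Per2, 0.68 with Per1 and 0.68 with Arntl, but -0.24 with Dbp and -0.14 with Ciart. As a description over the same 16 mice, with the group means removed, the mean log2 level of the 6 neuron markers had r of 0.78 with Nr1d1, 0.67 with Clock and 0.55 with Per1. The neuron markers were mixed, with r to Nr1d1 of 0.85 for Gad1, 0.80 for Syt1, 0.65 for Snap25 and 0.63 for Gad2. It was -0.32 for Rbfox3 and -0.77 for Slc17a7, and these 2 also had negative r to Clock (-0.76 and -0.36). The mean of the 5 choroid plexus markers had r of -0.60 with Clock, -0.55 with Arntl and -0.53 with Per2. The log2 share of counts taken by Gm42418, a gene that overlaps ribosomal RNA, had r of 0.70 with Clock and 0.50 with Per1. The part of these in the relations was not tested. With the first principal component regressed out, 5 pairs passed. Dbp and Ciart (0.73), Per3 and Ciart (0.75) and Cry1 and Nr1d1 (0.70) were among the 8 above, and Nr1d1 joined Ciart (0.84, permutation p = 3e-05, adjusted p = 0.00135) and Dbp (0.79, adjusted p = 0.0162). Arntl against Dbp was -0.61 (permutation p = 0.0172, adjusted p = 0.0860). Clock against Nr1d1 turned to -0.62 (permutation p = 0.0110, adjusted p = 0.0617), and Clock against Per2 to -0.15. On these values 35.6% of the clock pairs had an r of at least 0.5 in size against 15.6% of all gene pairs.

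The count of 8 pairs depended on single mice. It was 0 without adropin mouse 3_3, 4_3 or 7_4 or saline mouse 5_4 or 6_1, 3 without adropin mouse 2_4, 4 without saline mouse 6_2 or 7_1, and 5 without saline mouse 5_3 or 8_1. All 8 pairs had an unadjusted permutation p below 0.05 whichever mouse was left out, and the r of Dbp and Ciart stayed between 0.69 and 0.83.

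Among the 14939 genes that are not members, the gene most like Dbp across mice was Bhlhe41 (r = 0.88), a clock gene itself that encodes a repressor at E-boxes. The next were 0610040J01Rik (0.82), Pik3ip1 (0.81), Tpm2 (0.80), Tagln (0.78), Klhdc9 (0.78), Cd151 (0.78), Gstt2 (0.78), Ppp2r3a (0.76) and Myh11 (0.76), of which Tpm2, Tagln and Myh11 are genes of smooth muscle. Cirbp and Rbm3 stood at places 19 and 20 in this order, each with r of 0.73 to Dbp, and had r of -0.81 and -0.71 to Arntl. The heat shock gene Hsph1 had the opposite pattern, with r of 0.83 to Arntl (place 23) and -0.67 to Dbp. The other heat shock genes of that list were mixed, with r to Arntl and to Dbp of 0.69 and -0.44 for Dnajb1, 0.33 and -0.46 for Hspa1b, 0.28 and 0.06 for Hspa1a and -0.50 and 0.12 for Hsp90aa1. Cirbp, Rbm3 and Hsph1 were singled out after their values were seen. The genes least like Dbp were Socs7 (-0.83), Cbfa2t3 (-0.82), Dlgap3 (-0.81), Fam171a2 (-0.79), Lipg (-0.77), Dlx1 (-0.77), Hdac4 (-0.77), Vopp1 (-0.77), Sfpq (-0.77) and Tmem121b (-0.76). These values are descriptions, picked as extremes of 14939 genes.

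The genes most like Arntl were Syt13 (0.93), E2f4 (0.93), Dpp9 (0.91), Hectd3 (0.89), Polr3a (0.89), Fmnl1 (0.87), Mical2 (0.86), Prrt3 (0.86), Pik3c3 (0.85) and Srf (0.84), the last a transcription factor of the serum response. None of these is a clock gene of the lists examined. The genes most like Per1 were Midn (0.91), Map3k3 (0.89), Lrig2 (0.88), Vipr1 (0.87), a receptor of vasoactive intestinal peptide, Eef2k (0.87), Brsk2 (0.86), Plag1 (0.86), Baz2a (0.86), Rpap1 (0.85) and Arid3b (0.84). Among the other loop genes, Nr1d1 varied with Bhlhe40 (0.91), Hlf (0.90) and its paralogue Nr1d2 (0.84), and Cry1 with Nr1d2 (0.87). These pairs were picked after their values were seen, and other loop genes lay lower, such as Rora (0.39 to Nr1d1). The neuron marker Gad1 (0.85) and the endothelium marker Pecam1 (0.83) were about as close to Nr1d1 as Nr1d2 was. The first principal component, with r of 0.79 to Nr1d1, was not removed here.

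The 2 clock genes with an unadjusted p below 0.05 between groups were also set against the 15 activity- and glucocorticoid-responsive genes across mice, 30 relations chosen after the group values were seen, with the group means subtracted. Per1 varied with Nr4a1 (r = 0.79, permutation p = 0.000350, adjusted p = 0.00525, rho = 0.82 with permutation p = 0.0001), and r was 0.69 within adropin (exact p = 0.0715) and 0.85 within saline (exact p = 0.000794). Per1 also varied with Sik1 (0.78, permutation adjusted p = 0.00480), Egr1 (0.76, adjusted p = 0.00720) and the glucocorticoid-responsive Zbtb16 (0.74, adjusted p = 0.0112). With the 2 farthest mice left out these r were 0.67, 0.70, 0.68 and 0.70. Nfil3 varied with Nr4a1 (r = 0.72, permutation p = 0.00463, adjusted p = 0.0278, rho = 0.59 with permutation p = 0.0195), and r was 0.58 without those 2 mice. The other 25 relations had an adjusted p above 0.05, among them Per1 with Fos (0.51, adjusted p = 0.0858) and Nfil3 with Fos (0.53, adjusted p = 0.0858). As a background, 1.41% of the genes that are not members were as closely related to Per1 as Nr4a1 was, 1.85% as Sik1, 2.85% as Egr1 and 3.82% as Zbtb16, and 0.254% to Nfil3 as Nr4a1. None of the 30 relations passed once the first principal component was regressed out. The r was then 0.68 for Per1 with Nr4a1 (permutation p = 0.00673, adjusted p = 0.101), 0.60 with Sik1, 0.49 with Egr1 and 0.42 with Zbtb16, and 0.71 for Nfil3 with Nr4a1 (permutation p = 0.00255, adjusted p = 0.0765).

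**Figure D5:**
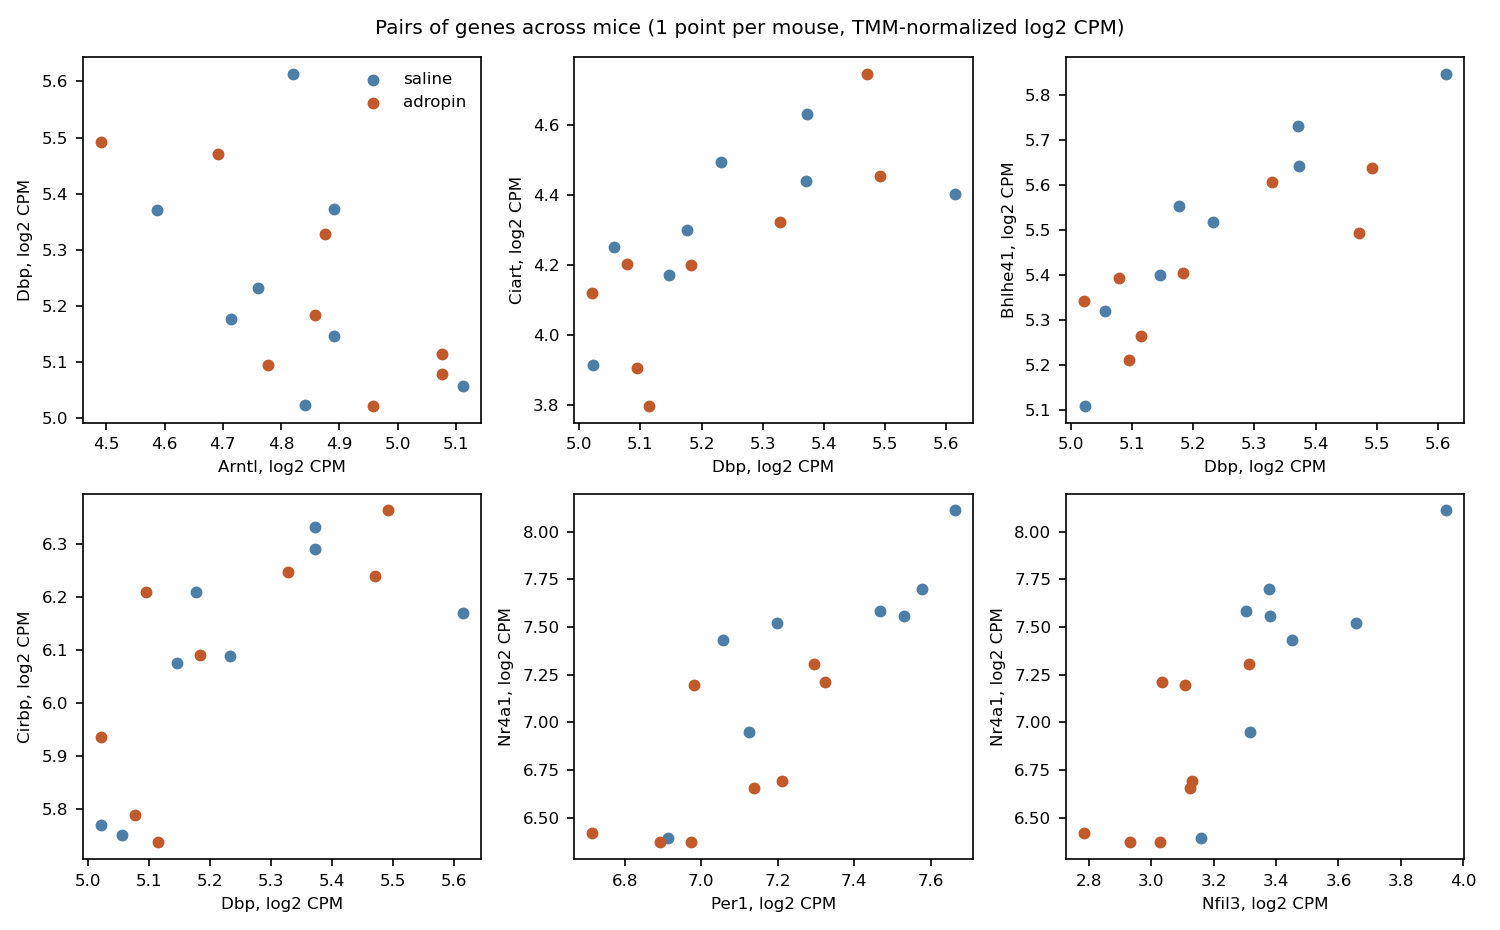
Log2 TMM-normalized CPM of 6 pairs of genes, 1 point per mouse (blue saline, orange adropin), without subtraction of group means. Mice high in Dbp tend to be high in Ciart, Bhlhe41 and Cirbp and low in Arntl, and mice high in Nr4a1 tend to be high in Per1 and Nfil3 (within-group r of 0.79 and 0.72).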

How the data were processed

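RNA from 16 brains was sequenced as paired reads after poly-A selection. Alignment was with STAR to Ensembl release 76 (GRCm38), and the authors deposited raw gene counts from featureCounts, which took reads that aligned uniquely and to 1 gene. A second deposited table holds CPM, made by the authors from the counts and library totals. Of 40757 entries 276 were repeats and were dropped. Groups came from the labels, with 8 mice each.

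A gene was kept if over 1 CPM in 7 or more mice, 355 ribosomal RNA genes were left out, and 14949 genes were compared with edgeR 4.0.16 (R 4.3.3) after TMM scaling, by the quasi-likelihood test with Benjamini-Hochberg adjustment over all of them and no covariate. Single genes were also compared by exact permutation in Python 3.11.15. Relations used log2 CPM with a prior count of 2. Alternatives were limma-voom (limma 3.58.1), DESeq2 1.42.0, other scalings and filters, log2 total count as a covariate, label numbers as a block and each mouse left out. Library totals ran from 35026503 to 70314050, and the spread between mice, with 8 per group, limits the precision. Labels show that samples are separate mice, and all 56 pairs of same-group mice had counts further apart than sampling noise allows. Exonic lengths and coordinates came from GENCODE on GRCm38, promoter sequences from RefSeq.

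The genes, lists and tests were chosen with earlier results of these data known. All 10 members are named. Of the other lists, genes with an unadjusted p below 0.05 are named, at most 10 by the smallest p (a limit applied to the lists without cell markers, by a choice made after the data were seen, with markers below 0.05 named as well), and of all genes the 10 most and 10 least like Dbp and the 10 most like Arntl and Per1. Other genes named were chosen after their values were seen.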

Additional observations from a re-analysis of the deposited data

How the results depend on the processing

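Of the clock genes, 2 had an unadjusted p below 0.05, against 0 with the first label number as a replicate block and 1 with the second, and 1 to 2 when single mice were left out. In the fit with the first number, Nfil3 had a log2 fold change of -0.29 (edgeR unadjusted p = 0.0892) and Per1 of -0.14 (edgeR unadjusted p = 0.434). In that fit the 6 activity-responsive genes also had unadjusted p above 0.05, from 0.0636 for Sik1 to 0.223 for Arc, with log2 fold changes of -0.39 for Nr4a1, -0.48 for Arc and -0.70 for Fos, and each passed in the other 8. Cdkn1a (0.397) and Coq10b (0.211) were above it as well, and with the second number Coq10b (0.0760), Mfsd2a (0.0547) and Rorb (0.145) were. The numbers were not taken to pair the mice. Deviations correlated above 0.1 in 2 of 5 cross-group pairs with the same first number and 7 of 17 with the same second number. They did so in 16 of 42 cross-group pairs that share no number. Whether the numbers mark a batch was not tested, and first numbers other than 2, 5 and 7 lie in a single group. In the other 7 fits Nfil3 and Per1 kept an unadjusted p below 0.05, and Clock fell below it with DESeq2 (0.0487) and without a filter on low counts (0.0422). None of the 10 passed the cut-off or an adjusted p of 0.05 in any fit. Over all genes 596 had an unadjusted p below 0.05, against 1902 without a filter, 327 and 420 with the blocks and 383 to 1445 without single mice. Of the other loop genes 1 passed, against 0 with limma-voom, the second number as a block or the total count covariate, 2 with library size only or the first number as a block, and 0 to 2 without single mice. By exact permutation 1 clock gene passed, against 2 with library size only and 2 with the deposited CPM, and 1 to 2 without single mice. The 8 related pairs became 1 with Spearman's rho, 1 without the 2 farthest mice, 5 without subtraction of group means, 5 with the first principal component removed, 15 with a block for the first number, and 0 to 9 without single mice. With that component removed Clock turned to -0.55 with Per1, -0.15 with Per2 and -0.62 with Nr1d1, and without the 2 farthest mice Arntl and Nfil3 turned to -0.0876. Of the 30 relations of Per1 and Nfil3 with responsive genes 5 passed, against 0 with that component removed, an alternative chosen after seeing the data, in which 8 had an unadjusted permutation p below 0.05. The cause was not tested.

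Log2 fold changes near 0 changed sign. Arntl was -0.00505 with the total count covariate and -0.00380 to 0.0825 without single mice. Per3 was 0.160 and 0.0361 with the blocks and 0.0232 with the covariate, and -0.0614 to 0.0564 without single mice. Nr1d1 was -0.0118 with library size only and -0.0518 with the first block, and -0.0455 to 0.0650 without single mice. Dbp was -0.0659 to 0.0276 without single mice.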
